A study of Sus scrofa with 20 samples.

Results

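Among the sequence tags of pig longissimus muscle, 244 pairs of tags that differed by 1 base were split by breed before birth, one tag carrying nearly all counts in Landrace (LR) and the other nearly all counts in Lantang (LT). They were found among 369050 one-base pairs of 801159 distinct tags. The rule used only the 5 prenatal libraries of each breed. Both tags of a pair differed by 1 base after the first 4, the pair had at least 50 summed counts in LR and at least 50 in LT, and one tag held 90% or more of these counts in LR while the other held 90% or more in LT. The 244 pairs were therefore selected on their prenatal shares, and these shares are given as a description without a test. In each pair the tag that dominated in LR is called the LR tag and the other the LT tag, and the LR-type share is the count of the LR tag over the count of both. The pair level is the sum of both tags in TPM, counts per 1000000 clean tags of the library. The pairs held 482 distinct tags, because 6 tags belonged to more than 1 pair, and 12 of the 244 pairs shared a tag with another member.

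The libraries came from LR and LT muscle at 35, 49, 63, 77 and 91 days post coitum (dpc) and 2, 28, 90, 120 and 180 days post natum (dpn), 20 libraries in all. Each was 1 pool of equal RNA amounts from 3 animals. Before birth these were male embryos or fetuses from 2 purebred sows per breed and stage. The paper states that the sows were inseminated from the same purebred boars, so pools of different prenatal stages may share sires. It does not name the parents of the postnatal animals, so the postnatal pools may share these sires too. After birth the animals were boars, castrated after 2 weeks, so the 2 dpn pools came from intact animals. The labels name no treatment. The muscle label was not checked against marker genes, because tags were not matched to genes here. Stages of a breed stood in for replicates here, so every SD measures the spread between stages and pools. The p-values rest on the same libraries and on a spread estimated together with the other features tested. The genotypes of single animals were not separated. Library totals lay between 2157111 and 5322022 clean tags. The LR libraries of 120 and 180 dpn stood apart from the others. Tags with a further CATG held 0.116% and 0.224% of their counts against 2.14% to 3.80% in the other 18 libraries, and fewer of the 244 pairs had 5 counts or more there (88 and 92) than in the other 8 LR libraries (121 to 238). The postnatal tests and the main postnatal counts are given with and without both stages, and other postnatal values include them.

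In digital gene expression profiling the enzyme NlaIII cuts cDNA at CATG, and a tag of CATG with the following 17 bases is read near the 3' end of the transcript. A base that differs between chromosomes inside this window turns 1 transcript into a pair of tags 1 base apart, and close copies of a gene can yield such pairs as well. Transitions, changes within the purines or within the pyrimidines, are the commonest base substitutions in mammalian genomes. Landrace is a lean breed selected for fast growth, and Lantang is an indigenous Chinese breed whose muscle grows more slowly. Pairs are numbered, from 1, in falling order of the smaller of both breeds' prenatal pair totals.

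The 12 pairs with the largest counts in both breeds are shown because they carry the shares and levels described first. Capitals mark the base that differs. A substitution is written as the base of the LR tag, its position counted from 1 at the first base of CATG, and the base of the LT tag.
Pair 1 LR tag: catgttaggggCgagtggagg
Pair 1 LT tag: catgttaggggTgagtggagg
Pair 2 LR tag: catgcttaCtaaaataaaaac
Pair 2 LT tag: catgcttaTtaaaataaaaac
Pair 3 LR tag: catgatagGggcaatgcatta
Pair 3 LT tag: catgatagAggcaatgcatta
Pair 4 LR tag: catgtctccTgcacagctggg
Pair 4 LT tag: catgtctccCgcacagctggg
Pair 5 LR tag: catggtgatTgtgggcatcgt
Pair 5 LT tag: catggtgatCgtgggcatcgt
Pair 6 LR tag: catgGtcatagcagtgccaac
Pair 6 LT tag: catgCtcatagcagtgccaac
Pair 7 LR tag: catggttgttctTttgaaggg
Pair 7 LT tag: catggttgttctCttgaaggg
Pair 8 LR tag: catggagcctgtaaatgtCtt
Pair 8 LT tag: catggagcctgtaaatgtTtt
Pair 9 LR tag: catgaCttttgcttcaacttt
Pair 9 LT tag: catgaTttttgcttcaacttt
Pair 10 LR tag: catgatttttgcttcaacttC
Pair 10 LT tag: catgatttttgcttcaacttT
Pair 11 LR tag: catgctgccccaTaagaccaa
Pair 11 LT tag: catgctgccccaCaagaccaa
Pair 12 LR tag: catgttactagttatcGatct
Pair 12 LT tag: catgttactagttatcAatct

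Of the 12 substitutions, C12T, C9T, G9A, T10C, T10C, T13C, C19T, C6T, C21T, T13C and G17A were transitions and G5C of Pair 6 was a transversion. The LT tag of Pairs 9 and 10 was the same tag, so the LT counts of both pairs are 1 set of counts. Pairs 4 and 5 both differed at position 10, and Pairs 7 and 11 both at position 13.

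Over all 244 pairs, 182 substitutions were transitions and 62 were transversions. The transitions made up 74.6% (95% Wilson interval 68.8% to 79.6%), and intervals here cover counting error alone, since the tags carried no molecular identifiers and PCR copies were counted separately. The background was the 8141 one-base pairs with the same prenatal floor in which both tags held 10% or more of the counts (mean of both breeds), members included, and 4708 of these (57.8%) were transitions. Changes between C and T were found in 96 pairs and changes between A and G in 86. Among transversions, C and G were exchanged in 26 pairs, A and T in 15, A and C in 11 and G and T in 10. The share of exchanges between C and G was 10.7% in the 244 pairs and 10.6% in the background, whereas the other 3 kinds of transversion took 4.10% to 6.15% of the 244 pairs and 9.74% to 11.7% of the background. A transition inside a CG dinucleotide was counted where the tag itself showed the neighbouring base, which held for 64 of the 182 transitions (35.2%) and for 38.2% of the transitions in the background. Read from LR to LT, the base changed from A to G in 51 pairs and from G to A in 35, from T to C in 50 and from C to T in 46.

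The differing base lay at every position from 5 to 21. Positions 11 and 16 held the most pairs, 21 each, and position 14 the fewest, 6. The last base of the tag, position 21, differed in 8 pairs (3.28%), while it was the commonest position in the background (8.46%). Transversions outnumbered transitions only at position 13, with 8 against 5. The median GC content of the 17 bases after CATG was 47.1% both in the 482 tags and in the 9445 tags of the background pairs. Runs of 6 or more equal bases occurred in 15 of the 482 tags (3.11%) and in 5.23% of the background tags. These are counts beside counts, and no test was made.

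**Figure D1:**
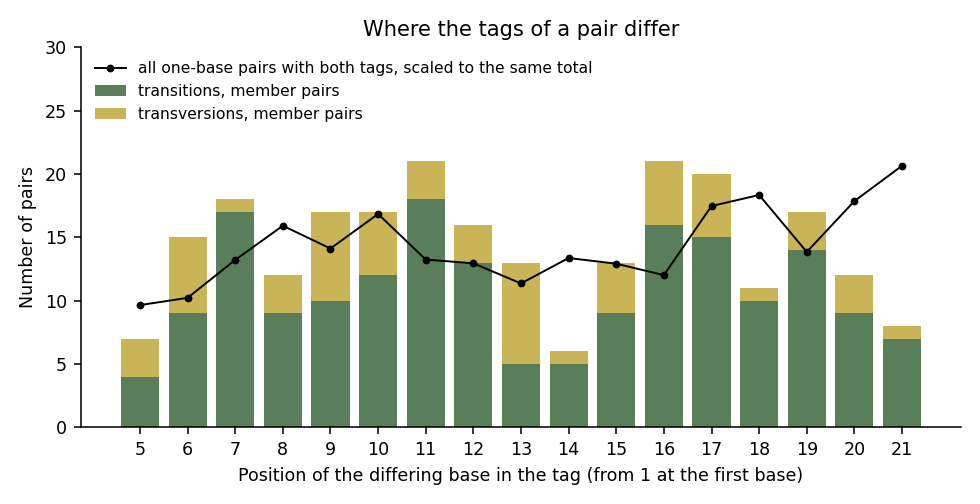
Number of member pairs (y axis) by the position of the differing base in the tag (x axis, counted from 1 at the first base of CATG), with transitions and transversions stacked. The black line gives all 8141 one-base pairs with both tags, scaled to 244 pairs, and is highest at position 21, where only 8 member pairs differed.

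Before birth, the shares that chose the pairs were mostly at their extremes. The other breed's tag had 0 counts in all 5 LR libraries in 161 of the 244 pairs and in all 5 LT libraries in 145. Its mean share was 1.81% in LR and 1.98% in LT. A tag with one of the other two bases at the same position averaged 0.0121% per base in LR and 0.208% in LT. One-copy tags had been removed, so that a tag seen once in a library is listed at 0. Just inside the 90% limit lay Pair 242 (90.0% in LR, 50 counts), Pair 1 (90.1% in LR, 9896 counts) and Pair 125 (90.2% in LR, 102 counts). Just outside lay a pair at 89.9% in LR and 2 pairs at 89.8% in LT, which are not members. These pairs are shown because they mark the limit of the rule.
Pair 242 LR tag: catgggagcaActaatgtgcc
Pair 242 LT tag: catgggagcaGctaatgtgcc
Pair 125 LR tag: catgtggagaAaaagccccca
Pair 125 LT tag: catgtggagaCaaagccccca
Pair outside, at 89.9% in LR, 199 LR counts, LR tag: catgttAgtctgcaacctttt
Pair outside, at 89.9% in LR, 199 LR counts, LT tag: catgttGgtctgcaacctttt
Pair outside, at 89.8% in LT, 196 LT counts, LR tag: catgActtcagttggggcaac
Pair outside, at 89.8% in LT, 196 LT counts, LT tag: catgGcttcagttggggcaac
Pair outside, at 89.8% in LT, 98 LT counts, LR tag: catgcagagctcattgccagA
Pair outside, at 89.8% in LT, 98 LT counts, LT tag: catgcagagctcattgccagC

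The pools differed in how fully they followed the split, and LT 35 dpc was the library that followed it least. Over pairs with at least 5 counts in the library, LT 35 dpc had the LT tag at 90% or more in 163 of 225 pairs (72.4%), against 92.1% to 96.2% in the other 4 prenatal LT libraries. In 59 pairs its share lay between 10% and 90%, against 9 to 17 pairs in the other 4. Most of these 59 pairs still had a majority of the LT tag, 34 with 70% to 90% and 16 with 50% to 70%. Among LR libraries, 63 dpc followed the split least before birth, with the LR tag at 90% or more in 202 of 238 pairs (84.9%) against 92.1% to 98.3%, and 36 pairs were intermediate. These libraries also helped to choose the pairs. When the rule was applied without a stage and the shares were read in that stage, an alternative added after the data had been seen, LT 35 dpc had 58.4% of 185 pairs at 90% or more and LR 63 dpc 77.9% of 204. The other 8 prenatal libraries then had 84.0% to 95.2%.

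**Figure D2:**
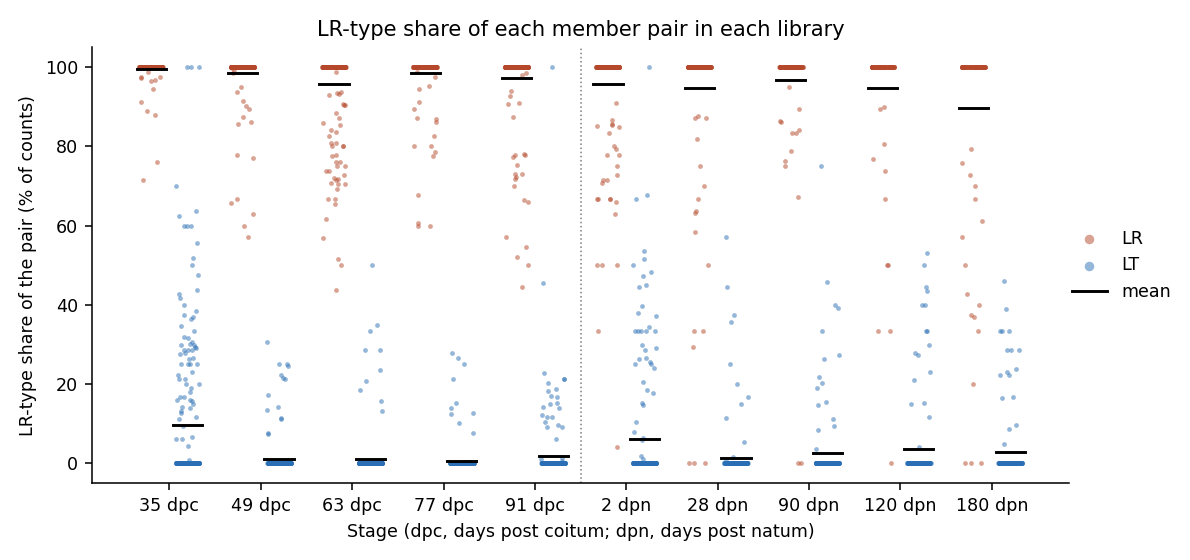
LR-type share in percent (y axis) of each member pair with 5 or more counts, in each library by stage (x axis), with LR in red, LT in blue and a black bar for the mean. The prenatal libraries left of the dotted line chose the pairs, and the mean of LT 35 dpc (9.67%) lies above those of the other prenatal LT libraries (0.731% to 1.95%).

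The postnatal libraries, which the rule did not use, showed the same split in most pairs. With at least 20 postnatal counts in each breed, 163 pairs could be read, and 162 of them kept the LR tag above 50% in LR and below 50% in LT. In 117 of the 163 (71.8%) both breeds reached 90%. LR alone reached it in 22, LT alone in 21 and neither in 3. With 50 counts in each breed the numbers were 64 of 91 (70.3%) for both breeds. Without 120 and 180 dpn, an alternative added after the data had been seen, 136 pairs had 20 counts in each breed, 134 of them kept both breeds on their side of 50% and 102 (75%) reached 90% in both. Among those with 20 counts, both breeds reached 90% in 87 of 121 transitions (71.9%) and 30 of 42 transversions (71.4%). In 82 of the 163 pairs no count of the other breed's tag was listed in either breed after birth. By library, the own tag reached 90% in 81.5% (180 dpn) to 90.1% (90 dpn) of the pairs with 5 counts in LR and in 83.3% (2 dpn) to 95.1% (28 dpn) in LT.

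**Figure D3:**
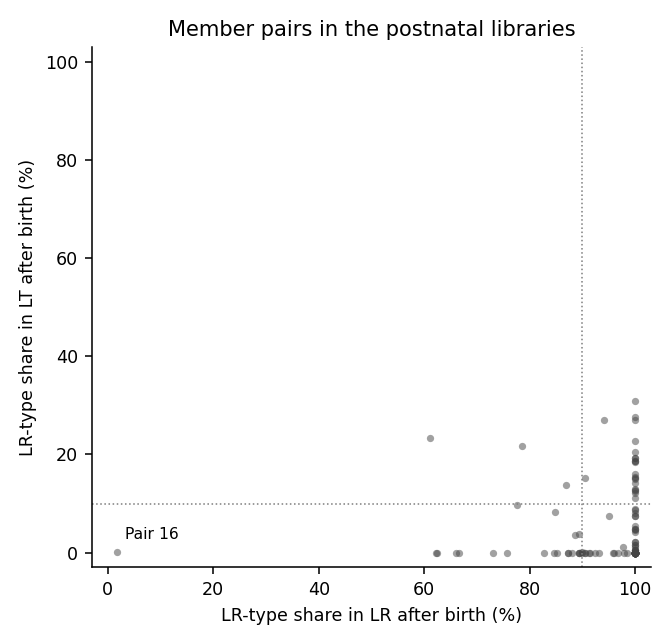
LR-type share after birth in LR (x axis, %) and in LT (y axis, %) of the 163 member pairs with at least 20 postnatal counts in each breed, 1 point per pair, counts summed over the 5 postnatal libraries of a breed. Dotted lines mark 90% and 10%, 117 pairs lie in the lower right field, and Pair 16 alone lies at the left.

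The difference of postnatal shares between the breeds was tested on both tags of each pair by edgeR's quasi-likelihood method, blocked by stage, with Benjamini-Hochberg adjustment over 9237 one-base pairs. Only 90 of the 244 pairs entered, those with at least 50 counts in each breed and with the rarer tag at 5% or more. The floor on the rarer tag used the same postnatal counts, so a pair that kept the split met it. Of the 91 members with 50 counts in each breed, only Pair 16, which crossed 50%, was left out. The counts that follow are conditional on this entry. Of the 90, 87 passed at an adjusted p below 0.05, each with the LR tag higher in LR. Among all 8241 tested pairs with any prenatal difference in share, 8.68% passed with the share higher in the same breed as before birth. Without 120 and 180 dpn, 86 of the 90 passed, beside 7.03% of the 8241. In the 47 members with 5 counts or more in each of the 10 postnatal libraries and the same floors, the shares of LR and LT did not overlap in 46, beside 8.79% of the 3311 pairs that met this condition. They did not overlap in 74 of 75 members when 120 and 180 dpn were left out, beside 15.6% of 4845 pairs. The 3 pairs that did not pass, named after their values were seen, were Pairs 42, 75 and 228. Pair 75 had an LR-type share of 61.0% in LR (59 counts) and 23.4% in LT (64 counts), Pair 42 of 66.0% in LR (50 counts) and 0 of 57 counts in LT, and Pair 228 of 88.6% (88 counts) and 3.64% (55 counts).

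Pair 2 (C9T) was the pair with the highest level after birth and kept the split in all 20 libraries. In LR the LR tag had 10, 1294, 2702, 1950 and 2251 counts at the 5 prenatal stages and the LT tag had 0, 0, 2, 0 and 0. In LT the LT tag had 21, 650, 568, 918 and 810 counts and the LR tag none. This allows a share of up to 0.101%, leaving aside one-copy tags, which had been removed and could raise it. After birth the LR-type share was 99.9% or more in every LR library and 0.0395% or less in every LT library (adjusted p = 1.39e-69, and 1.37e-59 without 120 and 180 dpn, edgeR quasi-likelihood test). Its level was low at 35 dpc, 2.36 TPM in LR and 7.11 TPM in LT, and lay between 289.8 and 575 TPM in LR and between 128 and 217 TPM in LT at the other prenatal stages. From 2 to 180 dpn the levels were 202, 586, 2767, 9974 and 5334 TPM in LR and 138, 1695, 1633, 2315 and 2479 TPM in LT. LR was thus higher at 2 dpn and from 90 dpn on and LT at 28 dpn, and the difference between breeds after birth did not pass (log2 LT minus LR -0.74, SE 0.76, adjusted p = 0.773, edgeR). Without 120 and 180 dpn it was 0.04 (SE 0.71). In pools of whole muscle, fewer cells of a type and less RNA per cell cannot be told apart, here and in every level below.

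Pair 1 (C12T) had the largest counts and lay near the 90% limit, with 1 prenatal library far below the others. Its LR-type share in LR was 97.2%, 98.6%, 57.0%, 98.9% and 98.0% from 35 to 91 dpc, the third value resting on 1141 counts of the LR tag and 860 of the LT tag. After birth it was 100% in LR at 2, 28, 90 and 120 dpn and 37.0% at 180 dpn, from 17 and 29 counts. In LT the share never exceeded 2.01%. The breeds' shares did not overlap before or after birth (adjusted p = 7.21e-50 after birth, and 2.49e-49 without 120 and 180 dpn, edgeR). The pair level was 469.9 ± 204 TPM in LR and 169 ± 29.97 TPM in LT before birth (mean ± SD, n = 5 stages), LR being higher at each stage. At 2 dpn it was 229 TPM in LR and 67.7 TPM in LT, and at 180 dpn 12.7 and 6.48 TPM. The postnatal breed difference of -1.84 (log2 LT minus LR, SE 0.53) had the same sign at each stage but did not pass over all tags (adjusted p = 0.663, edgeR), nor without 120 and 180 dpn (-1.81, SE 0.55, adjusted p = 0.422).

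Pair 12 (G17A) had higher levels after birth than at 35 dpc in every library and departed from the split in 2 LT libraries. In LR all counts were of the LR tag at each of the 10 stages. In LT the LR tag had 5 counts beside 4 of the LT tag at 35 dpc and 46 beside 112 at 2 dpn (29.1%), and 0 at the other 8 stages. Its level was 2.13 TPM at 35 dpc and 689.8 TPM at 90 dpn in LR, and 3.05 and 562 TPM in LT. Its change over prenatal age did not pass (adjusted p = 0.226, edgeR). At 120 and 180 dpn it was 30.3 and 15.5 TPM in LR, in the libraries that stood apart, and 688 and 678 TPM in LT.

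Other large pairs kept each breed's own tag in the majority after birth while their levels went different ways. Pair 3 (G9A) had the LR tag alone in all 10 LR libraries and 2 LR-tag counts in all LT libraries together, and its level stayed between 33.0 and 266 TPM in LR and between 34.7 and 243 TPM in LT. Pair 5 (T10C) had 122 TPM at 49 dpc and 6.03 TPM at 90 dpn in LR and was at 0 in LR at 120 and 180 dpn, whereas LT held 6.70 to 39.2 TPM after birth. Pair 6 (G5C) was higher after birth than before in both breeds, 292 ± 167 against 152 ± 41.5 TPM in LR and 209.6 ± 69.4 against 78.4 ± 21.5 TPM in LT. Its LR-type share was 83.5%, 87.4% and 76.4% at 63 dpc, 91 dpc and 90 dpn in LR and 100% in the other 7 LR libraries, and no LR tag was listed in LT. Pair 4 (T10C) had an LR-type share of 85.4%, 87.8% and 67.2% at 2, 28 and 90 dpn and 100% at 120 and 180 dpn in LR, and 0.142% or less in LT. Pairs 7 (T13C), 8 (C19T) and 11 (T13C) each had 1 prenatal LR library with many LT-tag counts, 77 beside 281 of the LR tag at 77 dpc in Pair 7, 108 beside 277 at 63 dpc in Pair 8 and 45 beside 108 at 63 dpc in Pair 11. Pair 11 also had 47 counts of the LR tag beside 201 of the LT tag in LT at 35 dpc.

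Pairs 9 (C6T) and 10 (C21T) had different LR tags and 1 LT tag. In LR the tag of Pair 9 had 155, 617, 132, 490 and 527 counts before birth and the tag of Pair 10 had 204, 328, 543, 203 and 146. The LT tag, which differs from the one at position 6 and from the other at position 21, had 2 counts in LR, at 49 dpc. In LT it had 342, 327, 95, 204 and 225 counts before birth and 971, 349, 64, 97 and 142 after birth, beside 0 of the LR tag of Pair 9 and 2 of the LR tag of Pair 10. In all 12 pairs the postnatal share passed the test in the direction seen before birth, with adjusted p from 2.73e-87 to 9.03e-19 (edgeR), and from 1.37e-59 to 1.09e-22 without 120 and 180 dpn. Pair 5 missed it with DESeq2 (adjusted p = 0.310). The size of these p-values depended strongly on the setting. For Pair 2 the adjusted p was 3.67e-09 without the stage block and 1.65e-197 with the rarer tag at 1% or more (edgeR). Only passing or not passing is therefore read from them.

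**Figure D4:**
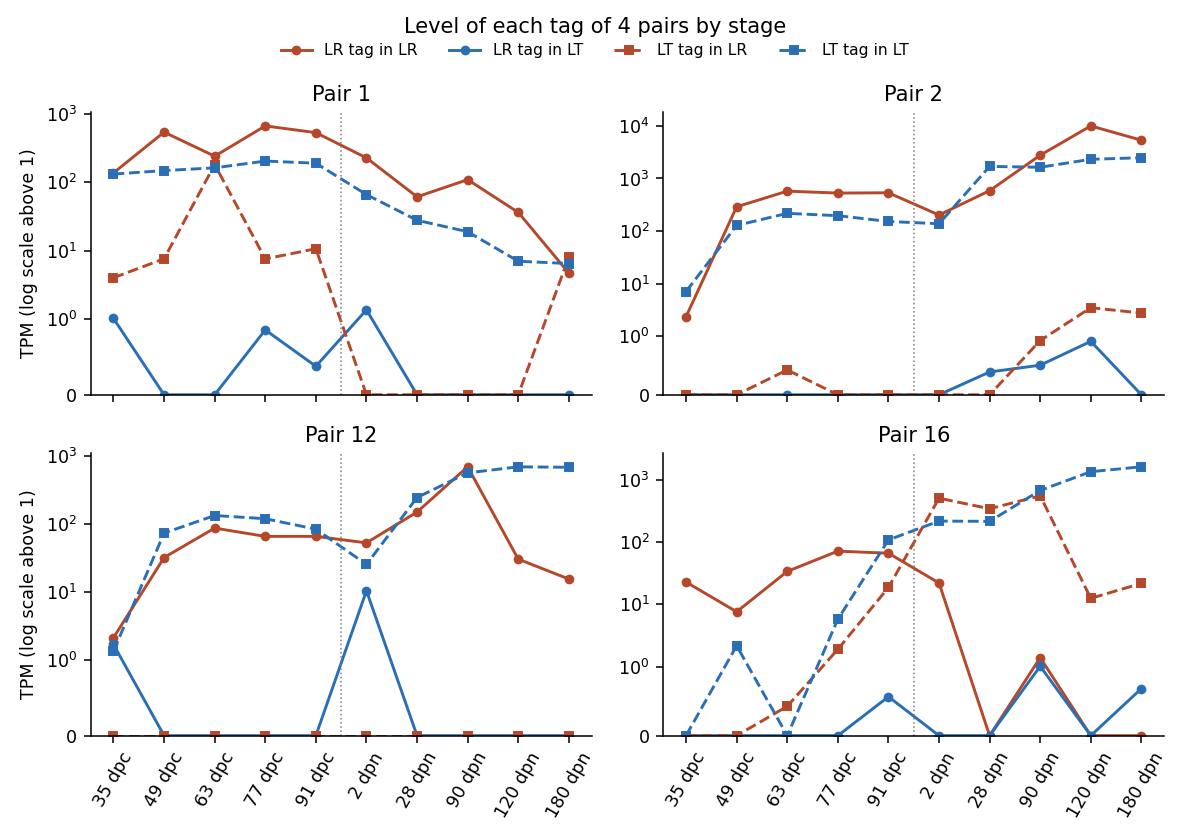
Level in TPM (y axis, logarithmic above 1 and linear below) of the LR tag (solid lines, circles) and the LT tag (dashed lines, squares) of Pairs 1, 2, 12 and 16 in LR (red) and LT (blue), by stage (x axis). In Pairs 2 and 12 each breed kept its own tag at nearly all stages, and in Pair 16 the LT tag led in both breeds after birth, with a pair level of 535 TPM in LR at 2 dpn and 1640 TPM in LT at 180 dpn.

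Pair 16 was the pair whose postnatal shares went furthest against the prenatal split, and it shared its LR tag with Pair 14. The 3 tags are shown because they followed different time courses.
LR tag of Pairs 14 and 16: catgtagaagccgtgaaTgcc
Pair 14 LT tag: catgtagaagccgtgaaCgcc
Pair 16 LR tag, the same tag with its differing base marked: catgtagaagcCgtgaatgcc
Pair 16 LT tag: catgtagaagcTgtgaatgcc

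The shared LR tag had 97, 34, 160, 266 and 281 counts in LR from 35 to 91 dpc, 69 at 2 dpn and 0 to 3 afterwards, and at most 4 in any LT library. The LT tag of Pair 14 (T18C) had 28, 577, 377, 1293 and 2572 counts in LT over the same prenatal stages, 61 at 2 dpn and 0 to 7 afterwards, and none in LR. Each of these 2 tags was thus found mainly in its own breed, and both were rare from 28 dpn on. The LT tag of Pair 16 (C12T) had at most 11 counts in any library up to 63 dpc and its highest counts after birth in both breeds. In LR it had 0, 0, 2, 7 and 79 counts before birth and 1597, 1008, 1205, 43 and 79 after birth. In LT it had 0, 11, 0, 27 and 581 before and 968, 1113, 2700, 4487 and 4809 after. The LR-type share of Pair 16 in LR went from 100% at 35 and 49 dpc to 78.1% at 91 dpc, 4.14% at 2 dpn and 0.248% or less later. Over the postnatal libraries it was 1.80% in LR and 0.0426% in LT. Pair 16 did not enter the share test, because its rarer tag was below 5%.

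Of the 232 pairs with at least 1 postnatal count in each breed, 226 kept both breeds on their prenatal side of 50%, and 223 of 231 did so without 120 and 180 dpn. Pair 118 was another that crossed it with 20 postnatal counts or more in the breed. Pair 118 (C8T) had 67.7% of the LR tag in LT (21 of 31 counts, Wilson interval 50.1% to 81.4%), all from 2 dpn, and 5 postnatal counts in LR, all of the LR tag. Its tags are shown because the share departs from the prenatal one.
Pair 118 LR tag: catgtagCtgtgctcgtaggg
Pair 118 LT tag: catgtagTtgtgctcgtaggg

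The sum of both tags was closer between the breeds than either tag, a contrast that the rule fixed before birth. Before birth the log2 ratio of LT to LR (mean TPM over 5 stages plus 0.5) had a median of -0.01 for the sum and was within 2-fold in 172 of the 244 pairs (70.5%). For all 49736 tags with at least 100 prenatal counts the share within 2-fold was 67.5%. For the LR tag alone the median ratio was -3.53 and for the LT tag alone 3.48, which the rule fixed. After birth the sum had a median of 0.25 and was within 2-fold in 191 pairs (78.3%), beside 74.7% of all 26372 tags with as many postnatal counts, and the single tags had medians of -2.23 and 2.44. With 120 and 180 dpn left out, 202 pairs (82.8%) were within 2-fold, beside 83.8% of 19252 tags, and the single tags had medians of -2.49 and 2.46. The 244 pairs had no floor after birth, and their median level over the postnatal libraries was 2.43 TPM in LR and 2.63 TPM in LT. With 0.5 TPM added, pairs near 0 in both breeds count as within 2-fold. The postnatal percentages of pairs and of all tags are therefore not like for like.

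**Figure D5:**
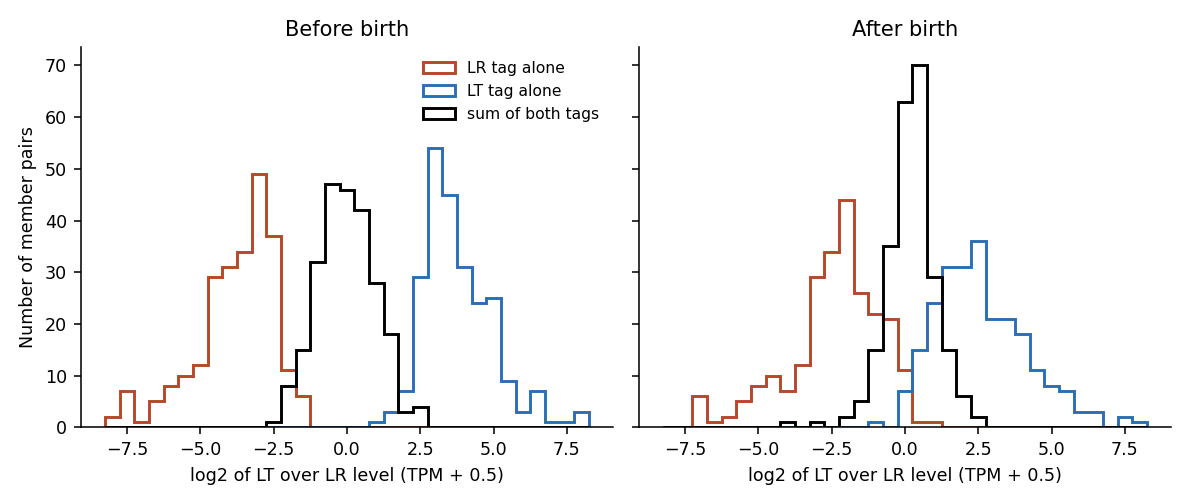
Number of member pairs (y axis) by the log2 ratio of the LT to the LR level (x axis, mean TPM over 5 stages plus 0.5), before birth (left) and after birth (right), for the LR tag alone (red), the LT tag alone (blue) and the sum of both (black). The sum centres near 0 (medians -0.01 and 0.25), while the single tags lie on either side, which the rule fixed before birth.

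The median pair level ran from 6.65 to 8.39 TPM in the 5 prenatal LR libraries and from 6.77 to 7.52 TPM in the 5 prenatal LT libraries. After birth it ran from 3.85 TPM at 2 dpn to 1.85 TPM at 90 dpn in LR, with 0 and 0.276 TPM at 120 and 180 dpn, and from 3.62 to 2.02 TPM in LT. The rule set a minimum before birth and none after it. Neither the lower postnatal median nor the counts that follow are therefore a result about these pairs. These counts also include LR at 120 and 180 dpn, where 136 and 122 pairs were at 0. The postnatal mean was under 50% of the prenatal mean in both breeds in 135 pairs, and more than 2 times it in both in 11. The stage with the highest level was prenatal in both breeds in 175 pairs and postnatal in both in 23, and was the same stage in 53. LR peaked at 35 dpc in 80 pairs and LT in 64.

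The breed difference of the pair level after birth was tested on all tags with each member pair as 1 row, in an edgeR quasi-likelihood fit blocked by stage. Of the 244 pairs, 110 passed the low-count filter and none was called, as was the case for all 22965 features tested (0% called). At an unadjusted p below 0.05 there were 9 of the 110 and 866 of all features. DESeq2 called 4 of the 110 and 507 of all. The log2 difference of LT minus LR in the 110 pairs ran from -4.14 to 3.37 with a median of 0.78 beside 0.56 over all features, and the median SE was 0.91. Without 120 and 180 dpn the median was 0.05 in 128 pairs, and 2 of the 128 pairs were called beside 1.18% of 27343 features. Both of these, Pairs 31 and 38, were higher in LR and shared their LR tag, so they are 1 observation of that tag. With at most 20 counts in any LT library of this postnatal fit, both passed the low-count filter through the LR libraries, where they were high. Their calls are given as values only.
Pair 31 LR tag, shared with Pair 38: catgcgtataCacacacacac
Pair 31 LT tag: catgcgtataTacacacacac
Pair 38 LT tag: catgcgtatacacacacacGc

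The shared tag had 33.4, 5.84 and 10.7 TPM in LR at 2, 28 and 90 dpn, and the whole of Pair 31 had 4.53, 0.585 and 0.506 TPM in LT. The difference of Pair 31 (C11T) was -3.40 (SE 0.61, adjusted p = 0.0425) and that of Pair 38 (A20G) was -4.67 (SE 0.72, adjusted p = 0.0239, edgeR). Before birth Pair 31 was also lower in LT, 18.2 ± 19.1 against 60.9 ± 34.2 TPM in LR. The tags consist largely of repeats of A and C. In LT the LT tag of Pair 31 had 10, 24, 148 and 236 counts from 49 to 91 dpc, and that of Pair 38 had 106, 44, 188 and 0.

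The tags were also tested as single rows. Over all postnatal libraries no tag was called, neither of 102 member tags tested nor of 22957 in all (0% called), although 95 of the 102 and 950 of all had an unadjusted p below 0.05. Without 120 and 180 dpn, 88 of 154 member tags were called beside 1.61% of 27369 tags, an alternative added after the data had been seen. A member tag entered this test mainly through the breed in which it was high, so its direction was fixed by its entry and the counts are a description only.

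Over the prenatal stages the pair level was tested for a common slope per day in both breeds. The rule had used the counts of both tags summed over these same stages. A pair with few counts in a library that followed the split least, such as LT 35 dpc, could meet the rule more easily. The part of this selection in the slopes was not tested, so the member counts beside all features are a description only. Of 238 pairs that passed the filter, 18 (7.56%) rose and 2 (0.840%) fell, beside 2.44% rising and 1.73% falling among 48562 features. With libraries scaled by their total clean tags, 15 rose and 5 fell, and over all features 1095 rose and 1303 fell in place of 1183 and 840. The calls depended on single stages, among members and over all features alike. Without 35, 49 and 63 dpc, 9, 8 and 6 members were called. Over all features these fits called 1091 of 50518, 1232 of 48421 and 1037 of 50233, in place of 2023 of 48562. Without 77 dpc or without 91 dpc no member was called (48 and 55 members at an unadjusted p below 0.05). Over all features 145 of 50024 and 75 of 50064 were called there. DESeq2 called 35 members and 4587 of all 48562 features. The 5 steepest rises were those of Pairs 16, 69, 118, 98 and 14, and both falls were those of Pairs 162 and 55. The tags not yet shown are given here because they carry these changes.
Pair 69 LR tag: catgaaaggtgtcacGgctac
Pair 69 LT tag: catgaaaggtgtcacAgctac
Pair 98 LR tag: catggacgccgagccCgagca
Pair 98 LT tag: catggacgccgagccGgagca
Pair 162 LR tag: catgctcaggcCatatattat
Pair 162 LT tag: catgctcaggcTatatattat
Pair 55 LR tag: catgtactgaaaaaTtatact
Pair 55 LT tag: catgtactgaaaaaCtatact

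Pair 98 (C16G) had the smallest adjusted p. Its level was 0.945, 4.93, 9.14, 24.6 and 20.7 TPM in LR and 1.69, 2.76, 5.73, 9.62 and 14.5 TPM in LT from 35 to 91 dpc, a fitted change of 3.82 on the log2 scale from 35 to 91 dpc (SE 0.58, adjusted p = 0.00648, edgeR). Pair 69 (G16A) went from 0 to 77.2 TPM in LR and from 2.37 to 24.99 TPM in LT (5.03, SE 0.88, adjusted p = 0.0111). Pair 118 went from 0 at 35 dpc to 10.2 TPM in LR and 9.39 TPM in LT at 91 dpc (4.94, SE 0.98, adjusted p = 0.0184). In Pair 14 the level went from 22.9 to 66.7 TPM in LR and from 9.47 to 484 TPM in LT, a common change of 3.37 (SE 0.74, adjusted p = 0.0283). The change in Pair 16 was 5.14 (SE 1.24, adjusted p = 0.0397), and it shares the counts of the LR tag with Pair 14. Pair 162 (C12T) fell from 12.8 to 1.90 TPM in LR and from 10.5 to 0.752 TPM in LT (-2.93, SE 0.73, adjusted p = 0.0448). Pair 55 (T15C) fell from 18.2 to 4.04 TPM in LR and from 56.5 to 3.95 TPM in LT (-2.86, SE 0.66, adjusted p = 0.0338). Of the 12 largest pairs none passed this test, the smallest adjusted p being 0.0843 for Pair 3 (0.0493 with scaling by total clean tags), whose level was 266 TPM at 35 dpc and 92.6 TPM at 91 dpc in LR and 213 and 90.0 TPM in LT.

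Some pairs of this set kept both tags in LT. The LR-type share of Pair 69 was 0% to 28.6% before birth and 4.96% to 28.0% after birth in LT, while LR held the LR tag alone in 9 of 9 libraries with counts. In Pair 98 the share in LT was 33.3% at 2 dpn, 21.1% at 120 dpn and 23.8% at 180 dpn, and 0% at 28 and 90 dpn.

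In 6 pairs exactly 1 tag held a further CATG inside its 17 bases, which would be another site for NlaIII, and they are shown because the substitution makes or breaks that site. The further site was in the LR tag in 4 pairs and in the LT tag in 2.
Pair 49 LR tag: catggtaatctacatTacatt
Pair 49 LT tag: catggtaatctacatGacatt
Pair 52 LR tag: catgagcCatggcttaggcca
Pair 52 LT tag: catgagcTatggcttaggcca
Pair 107 LR tag: catgacatattcccaaccAtg
Pair 107 LT tag: catgacatattcccaaccGtg
Pair 138 LR tag: catggtgttttcaagcAtgcg
Pair 138 LT tag: catggtgttttcaagcGtgcg
Pair 170 LR tag: catgagtgccAtggttatgag
Pair 170 LT tag: catgagtgccGtggttatgag
Pair 174 LR tag: catgtctctgggtctTatgtt
Pair 174 LT tag: catgtctctgggtctCatgtt

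Among these, Pair 52 (C8T) had the largest counts in LR before birth, with 20, 323, 374, 614 and 310 counts of the LR tag from 35 to 91 dpc. In LR its LR-type share, that of the tag with the further site, was 87.2% to 100% up to 28 dpn. At 120 and 180 dpn, in the libraries with few such tags, 3 and 2 counts of the LR tag stood beside 6 and 8 of the LT tag, and LT had none of it at any stage. In both these libraries no counts were listed for Pairs 107 and 138, whose LR tag has the further site, nor for Pairs 49 and 174, whose LR tag lacks it, and Pair 170 had 2 and 3 counts of its LR tag. The part of the low share of such tags in these values was not tested.

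Across all 20 libraries, the breed's own tag held 90% or more in every library with 5 or more counts of the pair in 84 of the 244 pairs (34.4%). In 73 of these 84 it held all counts in each such library. The own tag held 90% or more in every such library in 106 pairs over the prenatal libraries, which chose the pairs, and in 155 over the postnatal ones. A library with fewer than 5 counts could not count against a pair. Only 166 pairs had 5 counts in all prenatal libraries, 50 in all postnatal ones and 41 in all 20. These numbers are a description only.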

How the data were processed

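Longissimus muscle RNA was profiled by digital gene expression in 20 pooled libraries, 1 per breed and stage, each from 3 animals. The authors deposited, per library, every clean tag of 21 bases with its raw count and its TPM, the count per 1000000 clean tags. Adaptor, low-quality and one-copy tags had been removed, so the smallest count is 2. Groups came from the labels. The member pairs and the tests were chosen with earlier results of these data known.

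Counts were joined over libraries in Python 3.11.15 with pandas 2.3.3, and all pairs of tags 1 base apart after the first 4 bases were listed. Pairs printed with full values were the 12 largest by the smaller prenatal total of both breeds, those on the other side of 50% after birth in a breed with 20 counts, those nearest the 90% limit, up to 5 called pairs per direction with the largest change, and those with 1 further CATG. The pairs not called in the share test were added after their values had been seen. Shares carry 95% Wilson intervals, and a count of 0 allows a share of up to 3 counts of the total. That limit leaves aside the one-copy tags removed from each library, which could raise it. The intervals and the limit cover counting error only.

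Tests used edgeR 4.0.16 (quasi-likelihood, R 4.3.3) on the deposited counts and were two-sided, with Benjamini-Hochberg adjustment over all features at 0.05. For shares, both tags of a pair were modelled with stage as a block, over pairs with 50 postnatal counts per breed and the rarer tag at 5% or more. For levels, each member pair was summed into 1 row and fitted with all other tags under TMM scaling and edgeR's low-count filter, with stage as a block between breeds, or with day as a number and breed as a block over prenatal age. The procedures were tested on simulated data. Alternatives included DESeq2 1.42.0, limma 3.58.1, other floors and scalings, and leaving out stages. The tags were not matched to genes or the genome. One pair that met the printing rule is not reported here.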

Additional observations from a re-analysis of the deposited data

Results flagged for a closer look

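For the 12 largest pairs and the library summaries, the highest and the lowest of the 5 stages of a breed and period were compared with the other 4 by Dixon's criterion at the 95% level. The stages are different ages and not replicates. Chance puts about 1 in 20 sets past the limit only where values are normally spread. Where the other stages all lie at 0% or at 100%, any departure passes. For such shares this rate does not hold, so the number of sets past the limit is not read as an excess. Of 62 sets, 21 had a stage past the limit, and in 8 of these the share lay under 2 percentage points from all others.

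Before birth in LR, the LR-type share was 57.0% in Pair 1 (97.2% to 98.9% at the other stages), 71.9% in Pair 8 and 70.6% in Pair 11 at 63 dpc (100% at the others). At 63 dpc Pair 2 had 99.9%. At 49 dpc the share was 85.6% in Pair 4, 99.7% in Pair 9 and 99.4% in Pair 10 (100% at the others). Pair 7 had 78.5% at 77 dpc (96.5% to 100% at the others). In LT, Pair 11 had 19.0% at 35 dpc and Pair 3 had 0.252% at 49 dpc (0% at the others). The pairs with the own tag at 90% or more made up 72.4% in LT at 35 dpc, against 92.1% to 96.2% at the other prenatal stages.

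After birth in LR, Pair 1 had 37.0% at 180 dpn, Pair 6 had 76.4% at 90 dpn and Pair 7 had 89.9% at 120 dpn (100% at the others). Values at 120 and 180 dpn come from the libraries that stood apart. In LT at 2 dpn the share was 29.1% in Pair 12, 2.01% in Pair 1, 1.16% in Pair 5 and 0.206% in Pair 10, and at 28 dpn it was 0.142% in Pair 4 and 0.830% in Pair 8 (0% at the others). The median pair level in LT was 3.62 TPM at 2 dpn and 2.02 to 2.44 TPM at the later stages.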

How the results depend on the processing

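The rule's thresholds set the number of pairs. There were 383 pairs at a share of 80%, 159 at 95% and 101 at 99%, 540 with a total of 20 counts per breed and 127 with 100. Leaving out a prenatal stage gave 189 to 207, and the mean of library shares gave 232. Transitions made up 73.5% to 78.2% under the other shares and totals. In the postnatal share test, with 87 of 90 members and 797 of all 9237 pairs called, a floor of 100 counts gave 49 of 49 and 495, DESeq2 gave 62 and 517, and leaving out a stage gave 81 to 87 and 630 to 733. For the postnatal level, with 0 calls, DESeq2 called 4 members and 507 features, no low-count filter 1 and 824, and omission of 120 and 180 dpn 2 and 323. No stage block called 252 features and 0 members, and leaving out any 1 stage left 0. Unsummed tags had 0 calls with all stages and, without 120 and 180 dpn, 88 among members and 441 in all. Over prenatal age, with 20 members and 2023 features called, DESeq2 gave 35 and 4587, no breed block 1 and 447, no filter 28 and 7327, log2 of the day 24 and 3114, and leaving out a stage 0 to 9 and 75 to 1232. Of the single-pair results in the text that were recomputed, the direction turned in 1, the postnatal level difference of Pair 2 (0.0375 without 120 and 180 dpn). Over prenatal age, 29 recomputed results lost their call, 4 gained a call and 57 were unchanged. For the postnatal share 1 lost its call and 155 were unchanged, and for the postnatal level 3 gained a call and 28 were unchanged. The cause of these changes was not tested. Breeds were paired by stage through the stage block. By replicate number, no paired analysis was possible because the only library of each breed and stage is replicate 1. Depth limits the rest: 163 of 244 pairs had 20 postnatal counts in each breed.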
